A study of Homo sapiens with 6 samples.

Results

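The class I histone deacetylases HDAC1, HDAC2, HDAC3 and HDAC8 were followed in single-cell transcriptomes of the human neuroblastoma cell line SK-N-BE(2)-C, a line with MYCN amplification that is kept in culture. They were found by their symbols, 4 of the 36601 genes in the deposited count matrices, and all 4 were among the 16763 genes with enough counts to be tested. Cells were taken up with TrypLE, a dissociation enzyme, and sequenced on the Seq-Well S3 platform, in which cells and barcoded beads share small wells and each captured transcript carries a unique molecular identifier (UMI). There were 6 libraries of this line, 2 for each of 3 groups: DMSO, the solvent control, trichostatin A (TSA), a hydroxamic acid that inhibits class I and class II histone deacetylases, and E6R, a compound known here by its code name only, which the series' design text counts among the HDAC inhibitors. Doses, treatment times and the structure of E6R are not given in the sources used here. Nothing in the labels says that the 2 libraries of a group came from separate cultures, so p-values measure the spread between libraries, which may be technical.

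Histone deacetylases remove acetyl groups from lysines of histones and of other proteins. The class I enzymes are zinc-dependent and mostly nuclear. HDAC1 and HDAC2 are close paralogs that form the catalytic core of the SIN3, NuRD and CoREST corepressor complexes, HDAC3 works in the NCoR and SMRT complexes and needs the deacetylase-activating domain of these corepressors for its activity, and HDAC8 works without such a complex and deacetylates SMC3, a subunit of cohesin. TSA binds the zinc ion in the catalytic pocket of these enzymes, and the transcript levels given here say nothing about enzyme activity.

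After cells with 500 or more genes and at most 20% mitochondrial UMIs were kept, 17589 cells remained, 1861 to 3946 per library. The cells held 4206366 and 4793493 UMIs in the DMSO libraries, against 13318200 to 26180262 in the other 4, and the median cell held 1053.5 to 1880 UMIs. The mitochondrial share of UMIs was 5.83% and 6.20% under DMSO, 6.08% and 9.71% under TSA and 1.55% and 1.51% under E6R, so E6R libraries stood apart in this measure. All 10 adrenergic neuroblast markers were detected in each library, and their summed level in CPM (UMIs scaled by the library's total) was 2404 and 2719 CPM under DMSO, 1396 and 1467 under TSA, and 2304 and 3369 under E6R. The 10 mesenchymal markers, which neuroblastoma cells of the other known state express, summed to 1359 and 847 CPM under DMSO, 3030 and 1881 under TSA, and 2116 and 1377 under E6R. VIM carried most of that sum (977 and 696 CPM under DMSO, 2840 and 1760 under TSA), while CD44 was lower under TSA (19.6 and 13.5 CPM) than under DMSO (70.7 and 27.2) without passing the test. Genes of blood, endothelium, liver, epidermis and pancreas summed to 8.75 to 35.6 CPM. The part that these marker and mitochondrial differences have in the results on the deacetylases was not tested. Any pair of libraries shared 11 to 58 cell barcodes.

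Under TSA the HDAC1 and HDAC3 transcripts rose, 2.65-fold and 2.87-fold over DMSO. HDAC2 and HDAC8 did not pass the test in that comparison. Under E6R no member passed the test against DMSO. Set directly against TSA, E6R cells had less HDAC1 and HDAC3 and more HDAC8.

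HDAC1 (ENSG00000116478) lies on chr1:32292086-32333635, plus strand, in the GRCh38 annotation GENCODE 29, and no other annotated gene overlaps it. HDAC3 (ENSG00000171720) lies on chr5:141620876-141636870, minus strand, where an antisense RNA gene, AC008781.1, overlaps it. Whether counting used the strand is not given in the sources used here, so reads of HDAC3 and this antisense gene may not be told apart. The 250 bases before the start of each of these genes, which are the members that rose under TSA, are shown from RefSeq on GRCh38.p14, 5′ to 3′ on the gene's own strand. The HDAC1 stretch is chr1:32291833-32292082 on the plus strand and the HDAC3 stretch is chr5:141636850-141637099 on the minus strand. Capitals mark GC boxes (GGGCGG or, for the other strand, CCGCCC), which SP-family factors can bind, and CCAAT boxes (CCAAT or ATTGG), which the factor NF-Y can bind.
HDAC1: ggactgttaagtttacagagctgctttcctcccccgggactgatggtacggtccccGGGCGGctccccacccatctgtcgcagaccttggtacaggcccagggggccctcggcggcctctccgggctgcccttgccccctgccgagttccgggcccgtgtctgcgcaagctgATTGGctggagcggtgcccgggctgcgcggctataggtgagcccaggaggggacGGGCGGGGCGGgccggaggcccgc
HDAC3: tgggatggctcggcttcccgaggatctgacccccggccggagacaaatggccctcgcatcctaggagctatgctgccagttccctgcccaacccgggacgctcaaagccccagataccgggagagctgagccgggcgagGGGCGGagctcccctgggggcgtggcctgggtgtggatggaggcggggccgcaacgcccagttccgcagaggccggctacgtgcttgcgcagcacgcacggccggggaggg
The HDAC1 stretch holds 3 GC boxes, 2 of which overlap near the start site, and 1 CCAAT box, and its GC content is 71.6%. The HDAC3 stretch holds 1 GC box and no CCAAT box at a GC content of 70.8%. Of 35116 promoters of the same length, 42.6% held a GC box, 13.9% held 3 or more, 32.0% held a CCAAT box, and the median GC content was 58%. The starts that RefSeq gives HDAC2, HDAC3 and HDAC8 lie inside the GENCODE 29 extents of these genes. The stretches before the RefSeq starts of HDAC2 and HDAC8 held neither motif. They are chr6:113971149-113971398 for HDAC2 (GC content 63.2%) and chrX:72572844-72573093 for HDAC8 (48%), both on the minus strand. None of the 4 stretches held a canonical E box (CACGTG, found in 6.34% of promoters) or TATAAA (10.7%). A match describes letters only, and no binding or acetylation was measured here.

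HDAC1 stood at 66.3 and 51.8 CPM in the DMSO libraries, 154 and 159 CPM in the TSA libraries, and 74.3 and 78.2 CPM in the E6R libraries, on the scale of edgeR's TMM-adjusted library sizes. Both TSA libraries were far above the other 4, which lay close to each other. The mean rose from 59.1 ± 10.2 CPM (SD, n = 2) under DMSO to 157 ± 3.96 CPM (SD, n = 2) under TSA. On the log2 scale this was a rise of 1.41 (SE 0.20, 95% interval 0.95 to 1.87, adjusted p = 0.00267 by edgeR's quasi-likelihood test with Benjamini-Hochberg adjustment over all tested genes).

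HDAC3 showed a like pattern. Its level was 34.0 and 44.2 CPM under DMSO, 121 and 104 CPM under TSA, and 33.7 and 35.4 CPM under E6R. The TSA libraries again stood above all others, while the E6R libraries did not separate from DMSO. The rise under TSA, from 39.1 ± 7.20 to 112 ± 12.3 CPM (SD, n = 2 each), was 1.52 on the log2 scale (SE 0.21, 95% interval 1.03 to 2.01, edgeR adjusted p = 0.00262).

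These 2 of 4 members were read against a wide background, since 29.7% of all tested genes were called between TSA and DMSO, 16.2% higher and 13.5% lower. Of the tested genes, 11.7% had a larger log2 fold change than HDAC1 and 10.2% a larger one than HDAC3. Both calls held under all 18 alternative settings, including each library left out in turn, with log2 changes of 1.09 to 1.63 for HDAC1 and 1.22 to 1.71 for HDAC3. The lowest value of each came from scaling by total counts alone, which shifted the median change of all genes from -0.011 to -0.32 and the split of calls from 2720 higher and 2255 lower to 1717 higher and 3361 lower. Under that scaling the HDAC1 change was 1.09 (edgeR adjusted p = 0.00737).

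**Figure D1:**
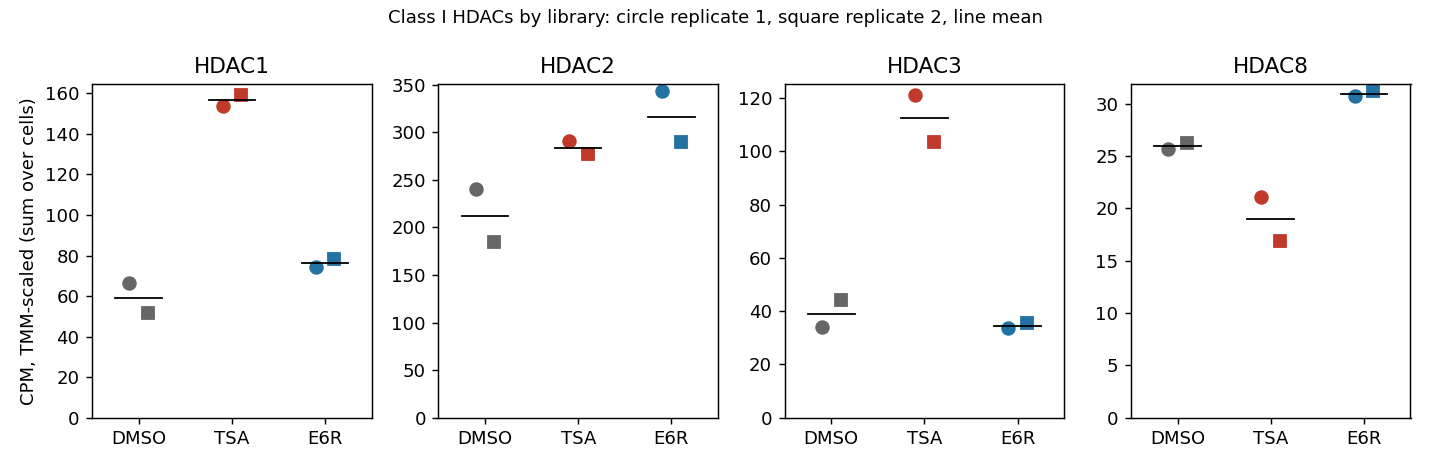
Level of HDAC1, HDAC2, HDAC3 and HDAC8 in CPM (TMM-adjusted, linear axis from 0) in each of the 6 libraries, grouped by treatment, 1 point per library with the group mean. HDAC1 and HDAC3 sit highest in the 2 TSA libraries, while HDAC8 is lowest there at 21.0 and 16.9 CPM.

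HDAC2 (ENSG00000196591) lies on chr6:113933028-114011308, minus strand, and overlaps HDAC2-AS2 on the other strand, which had 0.380 to 3.16 CPM. It was measured at 240 and 184 CPM under DMSO, 290 and 277 CPM under TSA and 343 and 289 CPM under E6R. The DMSO libraries were the lowest, and the TSA and E6R ranges overlapped. With 22215 UMIs over all cells it was the member with the most counts, so its counting error was the smallest, and the means were 212 ± 39.4 CPM under DMSO, 284 ± 9.69 under TSA and 316 ± 38.1 under E6R (SD, n = 2 each). The log2 difference between TSA and DMSO was 0.42 (SE 0.21, 95% interval -0.069 to 0.91), which did not pass the test (edgeR adjusted p = 0.168). A change as large as that of HDAC1 lay outside this interval.

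HDAC8 (ENSG00000147099) is X-linked, on chrX:72329516-72573199, minus strand, and overlaps AL133500.1 and RNU2-68P on its own strand. Its level was 25.7 and 26.2 CPM under DMSO, 21.0 and 16.9 CPM under TSA, and 30.7 and 31.2 CPM under E6R. The order TSA below DMSO below E6R held for every library, with narrow gaps. It had the fewest counts of the 4, 2044 UMIs in all cells. The log2 difference between TSA and DMSO was -0.45 (SE 0.23, 95% interval -0.98 to 0.076, edgeR adjusted p = 0.170). Scaled by total counts alone it was -0.76 and passed (edgeR adjusted p = 0.0489), so this call depends on the scaling.

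Groups that did not overlap were common in these data, at 71.3% of tested genes between TSA and DMSO, 47.3% between E6R and DMSO and 72.6% between E6R and TSA. For all 4 members the TSA and DMSO libraries did not overlap, and HDAC1, HDAC2 and HDAC8 also had both E6R libraries above both DMSO libraries. With 2 libraries a group, such an ordering carries little weight by itself.

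The comparison of E6R with DMSO used the same DMSO libraries as that of TSA. No gene was called by edgeR, 0% of those tested, though 2913 had an unadjusted p under 0.05 and DESeq2 called 338. HDAC1 had a log2 difference of 0.37 (SE 0.20, 95% interval -0.082 to 0.82, adjusted p = 0.366), below the lower bound of its rise under TSA. HDAC2 had the largest difference of the 4, 0.58 (SE 0.21, 95% interval 0.087 to 1.06), with an unadjusted edgeR p of 0.0264 that gave 0.237 after adjustment. HDAC3 differed by -0.18 (SE 0.21, 95% interval -0.66 to 0.31, edgeR adjusted p = 0.692) and HDAC8 by 0.25 (SE 0.23, 95% interval -0.27 to 0.78, edgeR adjusted p = 0.593). The intervals of HDAC1 and HDAC3 left out a rise as large as that measured under TSA. Changes within these intervals could not be told apart, so a smaller change of the members under E6R was not settled.

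E6R and TSA were also compared directly, a comparison in which 38.2% of tested genes were called, 18.7% higher and 19.5% lower in E6R. HDAC1 was lower in E6R by 1.04 on the log2 scale, 2.05-fold (95% interval -1.49 to -0.59, edgeR adjusted p = 0.00494). HDAC3 was lower by 1.70 on that scale, 3.25-fold (95% interval -2.19 to -1.22, edgeR adjusted p = 0.00105). Both calls held under all 18 alternatives, at -1.06 to -0.79 for HDAC1 and -1.85 to -1.45 for HDAC3. HDAC2 did not pass, with a difference of 0.16 (95% interval -0.33 to 0.64, edgeR adjusted p = 0.580).

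HDAC8 was 1.63-fold higher in E6R than in TSA, a log2 difference of 0.71 (SE 0.22, 95% interval 0.19 to 1.22, edgeR adjusted p = 0.0390). This call was the least firm of those on the members. It was lost without TSA replicate 1 (edgeR adjusted p = 0.0936), without TSA replicate 2 (0.256), without E6R replicate 1 (0.0530) and without E6R replicate 2 (0.0738), though the direction held throughout.

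**Figure D2:**
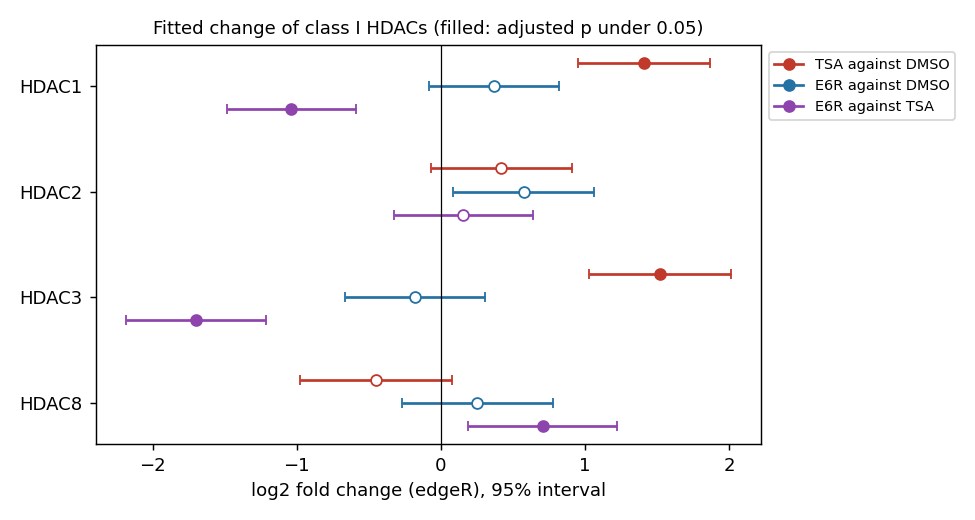
Fitted log2 fold change (edgeR) of the 4 members in the 3 comparisons, with 95% intervals as bars and a line at 0. The HDAC1 and HDAC3 intervals lie above 0 for TSA against DMSO and below 0 for E6R against TSA.

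HDAC1 and HDAC2 can stand in for each other in the same complexes, so the balance between their transcripts was followed as well. Since UMIs count transcript ends, the ratio is meaningful only as a change between libraries. HDAC1 counts per HDAC2 count were 0.276 and 0.281 under DMSO, 0.530 and 0.576 under TSA, and 0.217 and 0.270 under E6R. Both TSA libraries had a higher ratio than the other 4, and both E6R libraries lay under both DMSO libraries, the second E6R library only just. The mean log2 ratio differed by 0.99 between TSA and DMSO, by -0.20 between E6R and DMSO and by -1.19 between E6R and TSA. An exact two-sided permutation test over libraries gave p = 0.333 in each case, the smallest that 2 against 2 allows, so no ratio could pass a threshold of 0.05.

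The members were next counted cell by cell. Each cell was thinned to 1000 UMIs so that cells of different depth could be compared, and 2124 cells of DMSO, 1118 of TSA and 2410 of E6R were too shallow and left out. HDAC1 was then detected in 6.74% and 5.17% of DMSO cells, 11.6% and 10.9% of TSA cells and 7.0% and 8.66% of E6R cells. HDAC3 was detected in 3.79% and 4.28%, 9.77% and 7.92%, and 3.27% and 3.01% in the same order. For both genes the TSA libraries again stood above all others. Without thinning, HDAC1 had a UMI in 12.7% and 7.66% of DMSO cells, 35.7% and 28.5% of TSA cells and 23.0% and 20.8% of E6R cells, a spread that also holds the depth of the cells.

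HDAC2 was the member found in most cells, at 21.4% and 17.1% of thinned DMSO cells, 22.4% and 18.7% of TSA cells and 26.1% and 23.5% of E6R cells. The ranges of DMSO and TSA overlapped and E6R lay above both. HDAC8 was detected in 2.95% and 2.5% of thinned DMSO cells, 2.11% and 1.33% of TSA cells and 3.0% and 3.55% of E6R cells. The order matched its CPM, but the unthinned shares put TSA (mean 7.05%) above DMSO (mean 4.93%), against the CPM, and no order was read from them. For shares, too, the exact permutation test cannot go below p = 0.333.

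Genes of other tissues were counted in the same way. The most often detected of 8 such genes had a UMI in 1.53% to 5.78% of unthinned cells and in 0.773% to 2.36% of thinned cells by library, while the median of the 8 was 0.128% or less unthinned. In the first DMSO library PECAM1 was found in 3.22% of cells where an even spread of its UMIs would give 5.06%. CD68 was found there in 2.15% where an even spread would give 2.23%. What these shares measure was not tested. No cell type that lacks class I deacetylases was in the culture, so their own background could not be measured. HDAC8 in the second TSA library, at 1.33% of thinned cells, was as rare as CD68 there at 1.29%, and how much of either is free RNA was not tested.

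**Figure D3:**
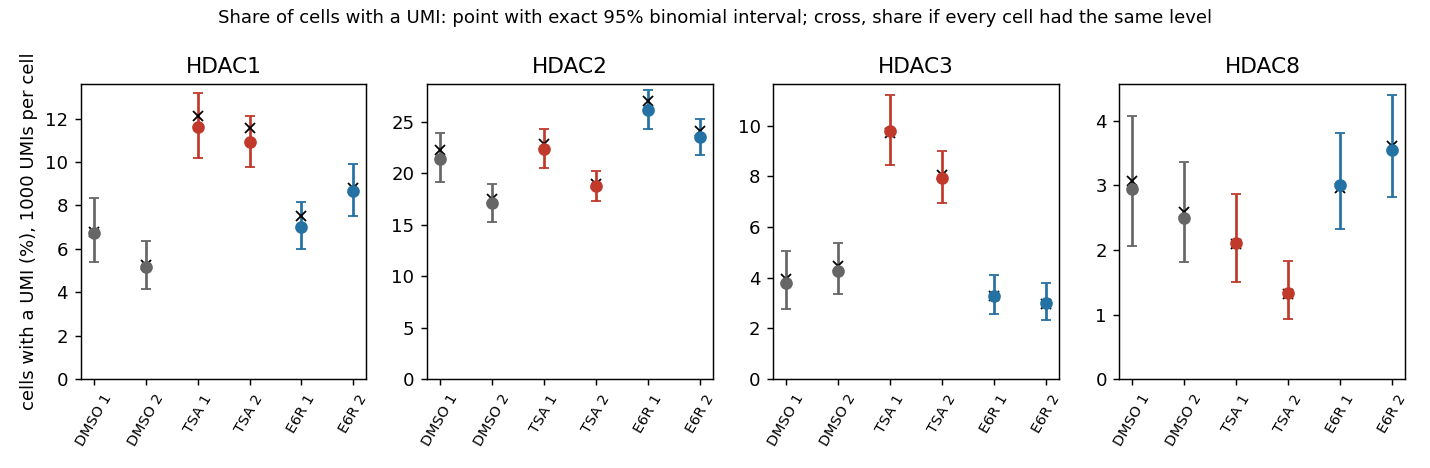
Share of cells with at least 1 UMI of each member, in percent, after each cell was thinned to 1000 UMIs, by library and group, with exact 95% binomial intervals that cover counting error only. HDAC1 and HDAC3 shares are highest in TSA, and HDAC2 is found in 17.1% to 26.1% of cells.

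A rise in a library can come from all cells or from a few, and the shares bear on this. If every thinned cell had the library's mean level of HDAC1, a UMI would be found in 6.75% and 5.27% of DMSO cells, 12.1% and 11.5% of TSA cells, and 7.52% and 8.79% of E6R cells. The measured shares of 6.74%, 5.17%, 11.6%, 10.9%, 7.0% and 8.66% lay just under these in every library. The share of cells with any UMI responds little to an uneven spread, and cells with 2 or more HDAC1 UMIs show more of it. Such cells numbered 3 and 4 under DMSO, 22 and 32 under TSA, and 17 and 12 under E6R, where an even spread would give 2.77, 2.37, 14.1, 19.3, 6.38 and 8.86. The number was above the even spread in all 6 libraries. HDAC2 was above it in all 6 as well, by less in proportion, with 61 and 60 TSA cells where 52.2 and 53.4 would be given. HDAC3 had 3 and 5 such cells under DMSO, 8 and 12 under TSA, and 1 and 0 under E6R. An even spread would give 0.944, 1.71, 9.0, 9.28, 1.18 and 0.986 in the same order. These are descriptions of counts, with no test.

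The members were also counted together in the same cell. At least 1 of the 4 was detected in 32.0% and 26.7% of thinned DMSO cells, 39.1% and 34.1% of TSA cells, and 35.4% and 34.7% of E6R cells. HDAC1 and HDAC2 were found together in 1.18% and 0.773% of DMSO cells, 2.54% and 2.26% of TSA cells, and 2.05% and 2.24% of E6R cells. The product of their separate shares was 1.44%, 0.883%, 2.60%, 2.04%, 1.83% and 2.03% in the same order, so the joint share was below it in 3 libraries and above it in 3. No thinned cell held all 4 members.

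Depth moved with the groups, and levels were also given by depth within each library. The cells of each library were split by their UMIs into shallow, middle and deep classes of like size. The cuts were each library's own, so a class does not hold the same depth in all libraries and depth is not held equal between groups. HDAC1 in plain CPM was 116 to 150 in the TSA classes, above the 54.8 to 84.4 of the DMSO classes and the 64.3 to 79.8 of the E6R classes. HDAC3 was 84.3 to 129 CPM in the TSA classes, 25.3 to 55.5 in the DMSO classes and 22.6 to 36.8 in the E6R classes. For these genes no TSA class overlapped a class of another group. The share of all genes with such a gap was not counted. HDAC8 was 13.0 to 22.1 CPM under TSA, 21.1 to 32.3 under DMSO and 29.4 to 36.9 under E6R, and its neighbouring groups overlapped.

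**Figure D4:**
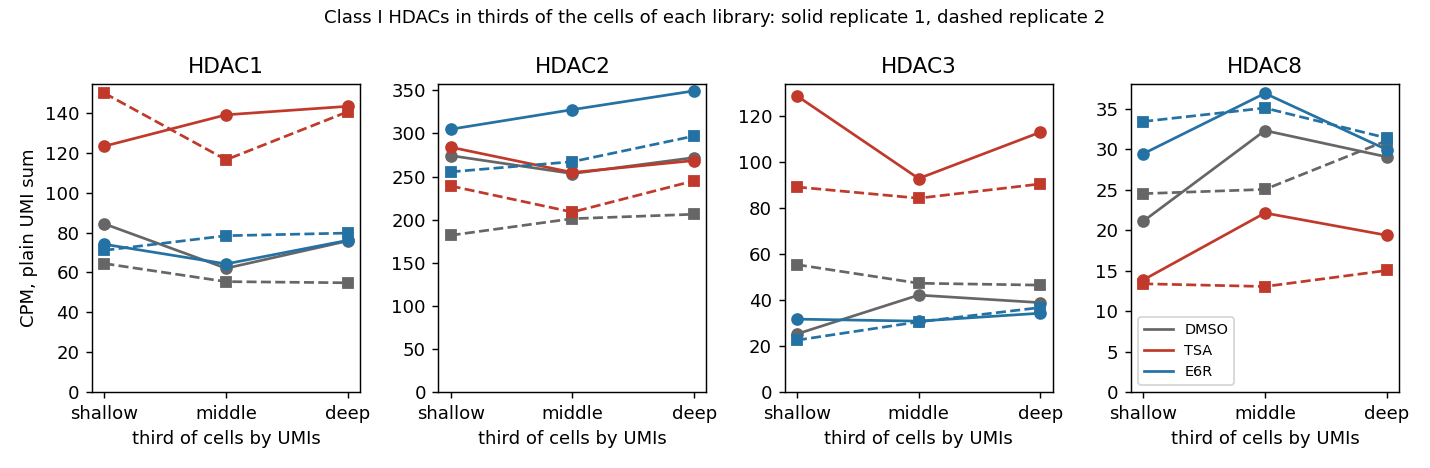
Level of the 4 members in plain CPM in the shallow, middle and deep classes of the cells of each library, 1 line per library coloured by group. The TSA lines of HDAC1 and HDAC3 stay above those of DMSO and E6R in every depth class. Classes are cut within each library, so a class does not hold the same depth in all libraries.

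The members were also set against the cell cycle phase that scanpy assigned from 43 S-phase and 54 G2/M genes. In thinned cells the mean log2 ratio of HDAC2 between G2/M and G1 cells was 0.18 ± 0.17 (SD over 6 libraries), and it was above 0 in 5 of 6. Without thinning it was 0.25 ± 0.15 and above 0 in 6 of 6, a pattern that 10.4% of 7515 genes shared. HDAC1 was higher in G2/M in 3 of 6 libraries (0.23 ± 0.45) and HDAC3 in 2 of 6 (-0.052 ± 0.50). These rest on as few as 3 UMIs in a phase for HDAC1 and 5 for HDAC3. The highest HDAC1 ratio, 1.03, was that of the second DMSO library, where the G1 cells held 3 UMIs. HDAC8 had 0 UMIs in the thinned G1 cells of the second TSA library and is given without thinning only, at -0.048 ± 0.32. Only 101 to 382 cells per library were called G1, and phase calls also read stray RNA, so these values describe assigned phases.

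Class II and class IV enzymes are the relatives of these genes, and all 7 were tested. Under TSA, 1 rose and 2 fell, with 29.7% as the background share of calls. HDAC6, a cytoplasmic deacetylase of tubulin, went from 28.7 and 21.6 CPM to 50.6 and 51.0 CPM (log2 change 1.02, edgeR adjusted p = 0.0147), a call lost when scaled by total counts, in thinned cells, in barcodes under 500 genes and without DMSO replicate 2, TSA replicate 1 or TSA replicate 2. HDAC7, a class IIa enzyme, fell from 64.6 and 27.9 CPM to 4.10 and 2.79 CPM (log2 change -3.74, edgeR adjusted p = 0.00239). HDAC9, of the same class, fell from 23.6 and 11.7 CPM to 5.01 and 3.05 CPM (log2 change -2.12, edgeR adjusted p = 0.0125). Its call, though not its direction, was lost without DMSO replicate 1, TSA replicate 1 or TSA replicate 2. HDAC4, HDAC5, HDAC10 and HDAC11 did not pass. Between E6R and DMSO edgeR called none, with 1 at an unadjusted p under 0.05, beside 2913 of all 16763 genes. It called 1 without the filter on low counts, beside 1095 of 31532. E6R set against TSA had more HDAC9 and HDAC7 (log2 differences 3.45 and 3.26) and less HDAC11 and HDAC6 (-1.84 and -1.15), with the HDAC11 call lost without TSA replicate 1 and in barcodes under 500 genes, and that of HDAC6 without TSA replicate 2.

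The 45 listed subunits of the complexes that carry HDAC1, HDAC2 and HDAC3 were all tested. Under TSA 9 rose and 10 fell, 42.2% of them beside 29.7% of all genes, with a median log2 change of 0.023 beside -0.011. The largest rises were HMG20B of the CoREST complex (2.24), SAP130 (1.56) and SIN3A (1.53) of the SIN3 complex, and GPS2 of the NCoR and SMRT complexes (1.31). HMG20B went from 61.6 and 47.6 CPM to 229 and 286 CPM. The largest falls were TBL1XR1, an NCoR and SMRT subunit (-1.94), the NuRD subunits MBD3 (-1.43) and CDK2AP1 (-1.33), and RCOR2, a CoREST scaffold (-1.23). TBL1XR1 went from 132 and 96.4 CPM to 35.9 and 23.4 CPM. Subunits of 1 complex thus changed in both directions. The edgeR adjusted p of these 8 genes ran from 0.00152 to 0.0244. Scaled by total counts, 6 of the subunits rose and 15 fell, where 1717 of all 16763 genes rose and 3361 fell. Without any 1 of the DMSO or TSA libraries fewer subunits were called, and fewer of all genes as well. The calls of GPS2 and RCOR2 were lost without DMSO replicate 1, TSA replicate 1 or TSA replicate 2, that of RCOR2 also without DMSO replicate 2, and that of CDK2AP1 without TSA replicate 2.

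Between E6R and DMSO none of these subunits was called by edgeR, with 8 at an unadjusted p under 0.05, beside 2913 of all 16763 genes. DESeq2 called 3 of them, beside 338 of 16763, and 5 were called without the filter on low counts, beside 1095 of 31532. Against TSA, 17 were higher and 11 lower in E6R, 62.2% of them beside 38.2% of all genes. TBL1XR1 (2.64), CDK2AP1 (2.15), CHD3, the NuRD remodelling ATPase (1.42), and TBL1X (1.39) were higher on the log2 scale. HMG20B (-2.23), GPS2 (-1.57), SAP130 (-1.53) and SIN3A (-1.43) were lower. Without TSA replicate 1 or TSA replicate 2 fewer subunits were called, and fewer of all genes as well. The call of TBL1X was lost without either of these and without E6R replicate 1.

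Of the 12 cohesin genes, a group listed because HDAC8 acts on SMC3, 1 rose and 4 fell under TSA, which is 41.7% of them beside 29.7% of all genes, with a median log2 change of -0.51 beside -0.011. STAG2, a core subunit, fell from 136 and 151 CPM to 30.8 and 43.2 CPM (log2 change -1.95, edgeR adjusted p = 0.00173) and kept its call under all 18 alternatives. The other 4 calls were less firm. ESCO2, an acetyltransferase of SMC3, rose (1.24). PDS5A (-0.82) and PDS5B (-0.67), which regulate cohesin, and MAU2, part of its loader (-0.72), fell. Each of these calls was lost under 5 to 7 of the 18. Without TSA replicate 1 or TSA replicate 2 fewer of the 5 calls were left, and fewer of all genes were called as well. Scaled by total counts, 0 of the cohesin genes rose and 8 fell, where 1717 of all 16763 genes rose and 3361 fell. Between E6R and DMSO none was called by edgeR, with 1 at an unadjusted p under 0.05, beside 2913 of all 16763 genes. Against TSA 6 were higher and 0 lower in E6R, 50% of them beside 38.2% of all genes. These 6 were led by STAG2 (2.26), STAG1 (1.29), PDS5A (1.09) and RAD21 (1.0). Without TSA replicate 1 or TSA replicate 2 fewer of the 6 were called, and fewer of all genes as well. STAG1 lost its call in both cases and PDS5A without TSA replicate 1.

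**Figure D5:**
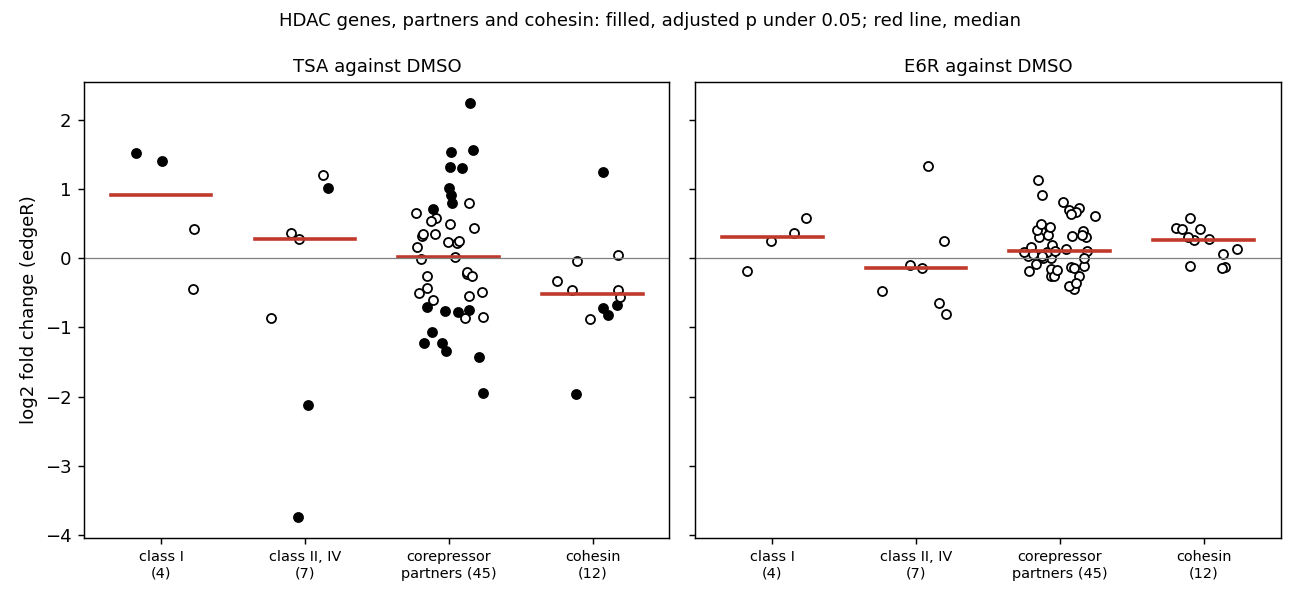
Fitted log2 fold change (edgeR) of each gene of the class I, class II and IV, corepressor and cohesin lists for TSA and for E6R against DMSO. Each point is 1 gene, with called genes marked. The corepressor genes spread to both sides of 0 under TSA, from -1.94 to 2.24.

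Genes whose levels ran most closely with each member were looked up among 7514 genes that were tested and averaged at least 20 CPM, by Pearson's r of log2 CPM over the 6 libraries. The libraries share scaling and treatment, so r is high for many genes and is given as a description. Nearest to HDAC1 were GLB1L2 (r = 0.997), NKRF (r = 0.997) and TRIP10 (r = 0.996). HDAC2 was closest to SLC25A32 (r = 0.991), SGK1 (r = 0.990) and MDN1 (r = 0.989). FAM53C (r = 0.998), AAMP (r = 0.998) and CYB5R1 (r = 0.997) ran closest to HDAC3. For HDAC8 these were TMEM126A (r = 0.999), LSM1 (r = 0.999) and MZT1 (r = 0.998).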

How the data were processed

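The deposited files were raw UMI counts per gene and barcode, 1 sparse matrix for each of 6 libraries. The deposited data of the second TSA library carry the mark reWTA, whose meaning is not given in the sources used here. Per the submitters' processing notes, STARsolo 2.7.9a and GRCh38 were used; the annotation and strand setting are not given in the sources used here, and GENCODE 29 held 94.6% of the gene identifiers and was used for positions only. Cells with 500 or more genes and at most 20% mitochondrial UMIs were kept and no doublet caller was run. UMIs were summed per library, genes with low counts were filtered, and all 6 libraries entered 1 edgeR 4.0.16 quasi-likelihood fit (R 4.3.3) with TMM scaling, called at an adjusted p of 0.05. Intervals of shares are Clopper-Pearson at 95%. Ratios and shares were compared with exact two-sided permutation tests. Steps were tested on simulated data. Named were the 4 members, at most the 4 largest rises and falls among called genes of each list and comparison, class II and IV enzymes, and the 3 genes with the highest r for each member. Members and lists were chosen with earlier results of these data known. Alternatives covered scaling, DESeq2 1.42.0, filters, cell limits, thinning, a replicate block and each library left out; barcodes under 500 genes were added after seeing the data.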

Additional observations from a re-analysis of the deposited data

Results flagged for a closer look

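Barcodes with fewer than 500 genes were not part of the comparisons, and HDAC1 and HDAC3 differed there too. HDAC1 stood at 116 ± 18.3 plain CPM under TSA and 58.4 ± 7.81 plain CPM under DMSO (SD, n = 2 each). The fitted log2 difference, on TMM-adjusted library sizes, was 1.35 (SE 0.22, edgeR adjusted p = 0.00439). HDAC3 stood at 82.9 ± 26.9 and 32.9 ± 15.2 plain CPM, with a fitted log2 difference of 1.66 (SE 0.34, edgeR adjusted p = 0.0102). The 2 scales differ, so these log2 differences do not follow from the plain CPM. These barcodes may hold small cells or free RNA, which was not tested.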

How the results depend on the processing

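The HDAC1 and HDAC3 calls between TSA and DMSO and between E6R and TSA kept their direction and an adjusted p under 0.05 (edgeR, and DESeq2 where that was the alternative) in all 18 alternatives. HDAC8 between TSA and DMSO was -0.76 with total counts only and then passed. HDAC8 between E6R and TSA lost its call with all deposited barcodes (0.69), cells thinned to 1000 UMIs (0.75), library sums thinned to 1 depth (0.44) and barcodes under 500 genes (0.63), and ranged from 0.56 to 0.88 with 1 library left out. Differences that had not passed changed sign for HDAC3 between E6R and DMSO with all deposited barcodes (0.012) and without DMSO replicate 2 (range -0.22 to 0.063 with 1 library left out), and for HDAC8 with thinned library sums (-0.013) and barcodes under 500 genes (-0.13). The HDAC1 to HDAC2 log2 ratio between E6R and DMSO was 0.044 in thinned cells. Unthinned share differences turned for HDAC3 between E6R and DMSO (5.90 points, and 3.63 with 300 genes or more) and HDAC8 between TSA and DMSO (2.12 and 1.35), and the unthinned G2/M to G1 log2 ratio of HDAC3 was 0.033.

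Calls between TSA and DMSO numbered 2960 in barcodes under 500 genes and 1416 to 6028 with 1 library left out: 2508 or 2696 when the first or the other DMSO library was dropped, 1769 or 1416 when the first or the other TSA library was, beside 4975. Between E6R and DMSO they numbered 338 with DESeq2, 1095 without the low-count filter, 1 with all deposited barcodes, 1 without mitochondrial and ribosomal genes and 0 to 3 with 1 library left out. Between E6R and TSA they numbered 4106 in thinned cells, 3669 in barcodes under 500 genes and 2628 to 6385 with 1 library left out, beside 6408. Same-numbered libraries deviated together over 7515 genes (r = 0.242 for DMSO and TSA, 0.564 for DMSO and E6R, 0.166 for TSA and E6R), but there are only 2 numbers and the labels do not say what they mark, so whether they pair the libraries was not settled. With a replicate block 6047, 19 and 7567 genes were called in the 3 comparisons, and no member's call changed. The cause of these changes was not tested. A G2/M to G1 ratio of HDAC8 in thinned cells could not be given. Depth limits HDAC8 most, with 2044 UMIs in all.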
